A study of Mus musculus with 23 samples.

Results

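Ndn, Magel2, Mkrn3, Peg12 and Gm32061 are neighbouring genes on mouse chromosome 7, at the distal end of the Prader-Willi domain. They were taken by symbol, and all 5 were found among the 26183 gene symbols of the tables. RNA had been sequenced from 23 whole embryos at E13.5 of gestation, 1 library for each embryo. Every embryo was a 129/DBA hybrid. The mothers were 129 females with 1 or no functional copy of Zfp57, and the fathers were males heterozygous for the deleted allele and mainly of the DBA/2J background, so a read over a strain variant was traced to the 129 (maternal) or DBA (paternal) chromosome. The product of Zfp57 is a zinc finger protein that maintains the methylation of imprinted regions. M+Z+ embryos had the gene product in the oocyte and in the embryo, M-Z+ embryos lacked it in the oocyte and received a functional copy from the father, and M-Z- embryos lacked both. There were 6 female M+Z+ embryos, 3 M-Z+ and 4 M-Z-, and among the males 4, 3 and 3. The titles of the samples give Zfp57-/+ as the genotype of both M+Z+ and M-Z+ embryos and Zfp57-/- as that of M-Z- embryos, while the table headers write WT for M+Z+, so the titles and headers differ on whether M+Z+ embryos carried 1 mutant copy. The deletion was inherited through the germ line, with no Cre driver. Each library was a separate embryo, but nothing in the labels says whether embryos of 1 group were littermates, so p-values measure the spread between these embryos. By the crosses, M+Z+ embryos had other mothers than M-Z+ and M-Z- embryos. In every comparison with M+Z+, genotype therefore cannot be told apart from mother and litter.

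The 4 coding genes are known as imprinted genes that are transcribed from the paternal chromosome while the maternal copies are silent. Their imprint is set at a distance by the Prader-Willi imprinting control region at the Snrpn promoter, where the maternal copy is methylated in the egg and ZFP57 is known to bind methylated copies of a short motif and to keep the methylation through the early divisions of the embryo. Loss of the paternally expressed genes of the human counterpart of the domain is part of Prader-Willi syndrome. Necdin (Ndn) and MAGEL2 belong to the MAGE protein family and are abundant in differentiating neurons, where necdin restrains cell division and MAGEL2 works with an E3 ubiquitin ligase on endosomes. MKRN3 is a zinc finger ubiquitin ligase known as a brake on the onset of puberty. Peg12, also called Frat3, is a retrogene of the Frat family, whose proteins bind the kinase GSK3. Gm32061 is a predicted gene with no known function.

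The genes lay within a short stretch of chromosome 7 (mm9, as the deposited tables give it). Ndn was a single exon on the plus strand at chr7:69493163-69494813. Magel2 was a single exon on the plus strand at chr7:69521865-69526526, and its start lay 28.7 kb from that of Ndn. Mkrn3 was a single exon on the minus strand at chr7:69562479-69565039, with its start 71.9 kb from that of Ndn. Peg12 was a single exon on the minus strand at chr7:69606757-69609396, with its start 116 kb from that of Ndn. Gm32061 had 3 exons on the minus strand at chr7:69482680-69568285, and Ndn, Magel2 and Mkrn3 lay inside its introns. No exon of a member overlapped an exon of another, so the members share no counted reads.

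The promoters of the coding members are shown because these genes lie apart from the control region and moved together in the data below. Each is the window from 250 bases before to 50 bases after the deposited gene start, read 5′ to 3′ on the gene's own strand from the NCBIM37 (mm9) genome, with every CpG, the dinucleotide that carries DNA methylation, in capitals. The windows were chr7:69492913-69493212 on the plus strand for Ndn, chr7:69521615-69521914 on the plus strand for Magel2, chr7:69564990-69565289 on the minus strand for Mkrn3 and chr7:69609347-69609646 on the minus strand for Peg12.
Ndn: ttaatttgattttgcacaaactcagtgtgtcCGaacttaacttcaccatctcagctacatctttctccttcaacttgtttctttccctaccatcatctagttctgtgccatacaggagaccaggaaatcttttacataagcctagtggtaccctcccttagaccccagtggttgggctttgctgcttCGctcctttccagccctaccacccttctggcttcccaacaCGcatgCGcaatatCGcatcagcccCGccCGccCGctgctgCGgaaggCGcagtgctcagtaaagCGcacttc
Magel2: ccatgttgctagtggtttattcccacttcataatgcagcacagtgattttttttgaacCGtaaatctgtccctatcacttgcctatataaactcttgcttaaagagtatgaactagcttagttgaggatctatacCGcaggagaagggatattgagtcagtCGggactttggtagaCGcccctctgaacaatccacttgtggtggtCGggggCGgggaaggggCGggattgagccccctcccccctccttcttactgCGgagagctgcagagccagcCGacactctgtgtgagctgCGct
Mkrn3: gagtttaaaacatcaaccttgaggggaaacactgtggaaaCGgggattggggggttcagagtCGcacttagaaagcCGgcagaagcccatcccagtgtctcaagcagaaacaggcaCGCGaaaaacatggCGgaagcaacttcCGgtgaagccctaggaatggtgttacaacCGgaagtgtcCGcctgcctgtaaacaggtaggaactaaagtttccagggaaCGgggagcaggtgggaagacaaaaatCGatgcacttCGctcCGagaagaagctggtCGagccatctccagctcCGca
Peg12: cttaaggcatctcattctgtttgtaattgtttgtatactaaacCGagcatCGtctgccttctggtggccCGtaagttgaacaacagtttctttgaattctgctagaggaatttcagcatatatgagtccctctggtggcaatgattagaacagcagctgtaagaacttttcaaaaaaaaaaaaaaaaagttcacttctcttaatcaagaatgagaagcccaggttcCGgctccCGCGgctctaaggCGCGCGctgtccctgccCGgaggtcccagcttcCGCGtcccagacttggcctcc
The Ndn window held 11 CpGs, that of Magel2 10, that of Mkrn3 15 and that of Peg12 12. The median over 25996 promoter windows of the same length was 11, so the coding members stood close to the middle of all genes. The Gm32061 window, chr7:69568236-69568535 on the minus strand, held 4. The hexamer TGCCGC, the motif bound by ZFP57 when its CpG is methylated, was searched on both strands and was found in none of the 5 windows, while 13.49% of all windows held it. The absence says only that these letters are not in these windows.

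Depth was alike over the embryos. Total counts ran from 15.2 to 24.1 M (mega, M) over the embryos, and 2.46 to 3.94 M reads of an embryo were assigned to an allele. Expression is given as CPM, the count of a gene over the total count in M. The mean of Zfp57 itself was 66.9 CPM (SD 17.0) over the female M+Z+ embryos, 71.4 (SD 6.28) for M-Z+ and 33.0 (SD 0.856) for M-Z-, and 76.5, 70.7 and 29.7 CPM for the male genotypes, so the M-Z- libraries had the lowest means. Reads of Zfp57 thus remained in embryos labelled Zfp57-/-. A count for the whole gene cannot show whether they lie in the deleted part. The median paternal share over autosomal genes was 49.4% to 50% in every embryo. Of the marker lists, the 13 neuron markers, which include the cells where necdin is best known, summed to 2512 to 2974 CPM in female M+Z+ and 2315 to 2574 in female M-Z- embryos, and to 2416 to 2670 and 2264 to 2548 CPM in the males. The 8 erythroid markers summed to 3262 to 6440 CPM in male M+Z+ and 6858 to 28867 in male M-Z- embryos, and the 7 hepatocyte markers to 4881 to 7039 and 1750 to 4649 CPM. In the females the erythroid sums were 3976 to 10748 CPM in M+Z+ and 6843 to 8770 in M-Z- embryos, and the hepatocyte sums 3471 to 7518 and 2575 to 4239 CPM. The 5 heart muscle markers summed to 276 to 345 CPM in male M+Z+ and 298 to 433 in male M-Z- embryos, with a median log2 fold change of 0.57, and the 6 cartilage markers to 1365 to 2126 in female M+Z+ and 1383 to 1818 in female M-Z- embryos, with a median of -0.39. With the 6 neural progenitor and 7 skeletal muscle markers, none of them was at 0 throughout a group. The 6 extraembryonic markers summed to 0.693 CPM or less in every embryo. One marker in all, the hepatocyte gene Apob in female M-Z- against M+Z+ embryos, was called, and the part of these differences in the results below was not tested. Between pairs of male M-Z- libraries the chi-square of counts per gene was 17.7, 36.7 and 47.9, against 2.27 to 21.3 between pairs in the other groups, and embryo 2 was in both of the highest pairs. Without embryo 2 the coding members were at log2 fold changes of 0.94 or more in total counts against M+Z+ and at differences of -50.3 to -53.4 points in paternal share, Gm32061 was at -48.2 points, and each of these was still called (edgeR). The Ndn share in male M-Z- against M-Z+ embryos then differed by -11.02 points (adjusted p = 0.0344, edgeR), also still called. What sets this library apart was not tested. In whole embryos, fewer cells of a type and less RNA per cell cannot be told apart.

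The first question was whether expression of these genes differed between genotypes. All 4 coding members rose in M-Z- embryos of both sexes, to about 2-fold the M+Z+ level, and all 4 also rose in M-Z+ embryos. Gm32061, expressed at about 1 CPM in M+Z+ embryos, was called in no comparison. Genotypes were compared within each sex by edgeR's quasi-likelihood test, where a call required a log2 fold change no smaller than 0.5 either way and an adjusted p under 0.05 (Benjamini-Hochberg, over every gene tested in that sex). By this rule 4 of the 5 members were higher in female M-Z- embryos, against 0.285% of all 16871 genes tested, and 4 of 5 in female M-Z+ embryos, against 0.0593%. In males 4 of 5 were higher in M-Z- embryos, against 0.264% of 16664 genes, and 4 of 5 in M-Z+ embryos, against 0.048%. No member was lower in any of these comparisons.

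**Figure D1:**
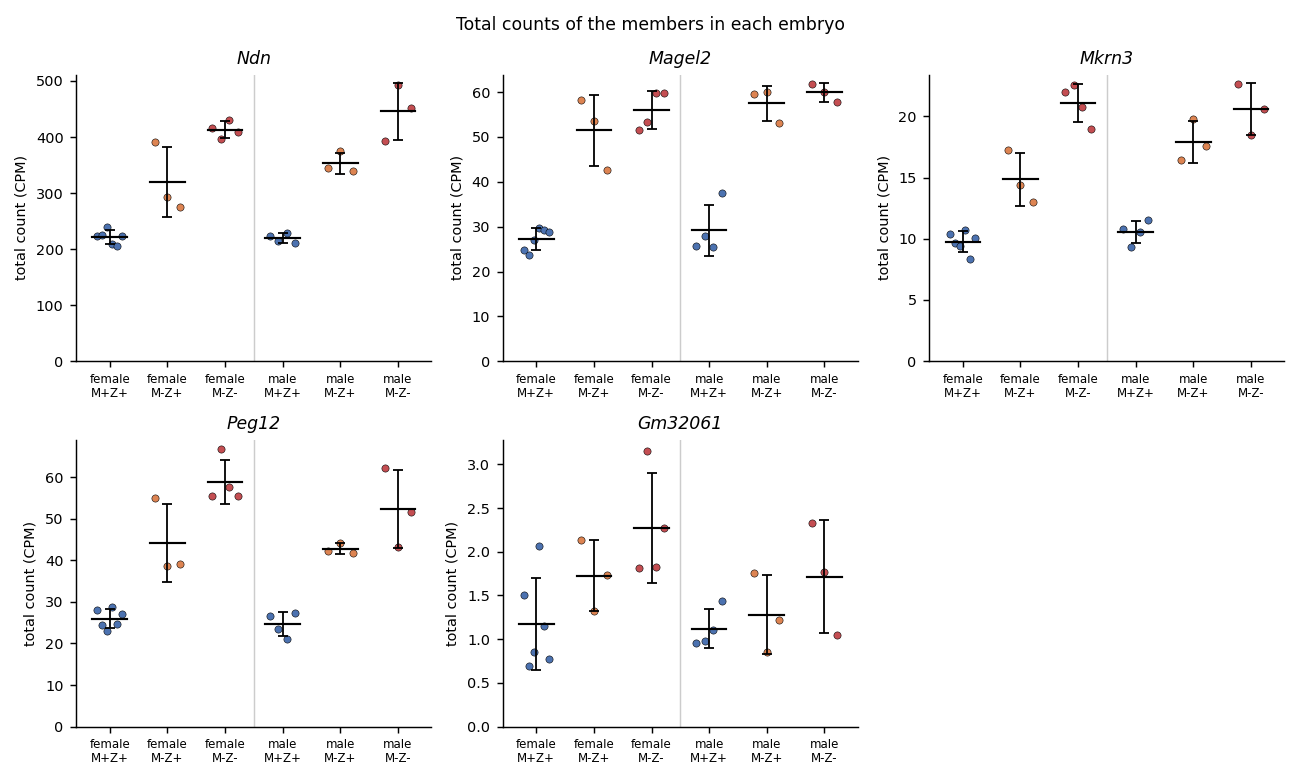
Expression of each member (CPM, linear axis from 0) in every embryo by sex and genotype, 1 point for an embryo, with a line at the group mean and whiskers of 1 SD. The M+Z+ embryos are lowest for Ndn, Magel2, Mkrn3 and Peg12, while the Gm32061 groups overlap.

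Ndn was the most abundant member. In female M+Z+ embryos it ran from 206 CPM through a median of 223 to 240.3 CPM. The M-Z+ females were at 391, 292 and 275 CPM (embryos 1, 2 and 3) and the M-Z- females at 417, 396, 431 and 409.6 CPM. The 3 genotypes did not overlap, with M-Z+ embryo 1 close to the M-Z- embryos and the other two nearer to M+Z+. The log2 fold change was 0.90 ± 0.076 (SE; adjusted p = 9.2e-07, edgeR) in M-Z- and 0.51 (adjusted p = 0.0188) in M-Z+ females. In males Ndn was at 223, 215, 229.6 and 211 CPM in M+Z+, 344, 375 and 339.8 CPM in M-Z+ and 392, 493 and 452 CPM in M-Z- embryos, again without overlap. Over all genes 2.24% were higher without overlap in each female mutant group than in M+Z+ embryos, and 4.41% in male M-Z- and 7.39% in male M-Z+ embryos. From M-Z+ to M-Z- it was 4.36% in females and 4.24% in males. The male log2 fold changes were 1.06 (adjusted p = 4.69e-05, edgeR) in M-Z- and 0.66 (adjusted p = 0.0195) in M-Z+ embryos.

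Magel2 showed the least difference between the M-Z+ and M-Z- groups. Female M+Z+ embryos ran from 23.7 through a median of 27.9 to 29.8 CPM. The M-Z+ females were at 58.2, 53.6 and 42.7 CPM and the M-Z- females at 51.5, 53.3, 59.7 and 59.7 CPM, so both mutant groups lay above all M+Z+ embryos and overlapped each other. In males the 4 M+Z+ embryos were at 25.7, 27.9, 25.5 and 37.5 CPM, the 3 M-Z+ embryos at 59.5, 60.05 and 53.1 CPM and the 3 M-Z- embryos at 61.9, 60.1 and 57.8 CPM. The order of groups was the same as in the females. The log2 fold change was 1.04 ± 0.083 (SE; adjusted p = 5.03e-07, edgeR) in female M-Z-, 0.90 (adjusted p = 0.000204) in female M-Z+, 1.08 (adjusted p = 0.000243) in male M-Z- and 0.96 (adjusted p = 0.00853) in male M-Z+ embryos.

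Mkrn3 was expressed at 8.34 to 10.7 CPM in female M+Z+ embryos, with a median of 9.86 CPM. It stood at 17.2, 14.4 and 12.97 CPM in female M-Z+ and at 21.97, 22.6, 20.8 and 18.99 CPM in female M-Z- embryos, and the 3 genotypes did not overlap. In males it was at 10.8, 9.37, 10.5 and 11.5 CPM in M+Z+, 16.4, 19.8 and 17.5 CPM in M-Z+ and 22.7, 18.5 and 20.6 CPM in M-Z- embryos, where both mutant groups were above M+Z+ and overlapped each other. The log2 fold change was 1.104 ± 0.092 (SE; adjusted p = 7.94e-07, edgeR) in female M-Z-, 0.59 (adjusted p = 0.0454) in female M-Z+, 1.00 (adjusted p = 0.000292) in male M-Z- and 0.74 (adjusted p = 0.0253) in male M-Z+ embryos.

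Peg12 had the largest log2 fold change of the members in M-Z- embryos of both sexes. It ran from 23.1 through a median of 25.9 to 28.8 CPM in female M+Z+ embryos. The M-Z+ females were at 55.1, 38.5 and 39.2 CPM and the M-Z- females at 55.5, 66.8, 57.8 and 55.5 CPM, with M-Z+ embryo 1 just below the M-Z- embryos. In males it was at 26.7, 23.6, 21.2 and 27.4 CPM in M+Z+, 42.3, 44.3 and 41.8 CPM in M-Z+ and 62.2, 43.3 and 51.8 CPM in M-Z- embryos. No mutant embryo of either sex reached down to the M+Z+ range. The log2 fold change was 1.17 ± 0.094 (SE; adjusted p = 5.3e-07, edgeR) in female M-Z-, 0.75 (adjusted p = 0.00726) in female M-Z+, 1.12 (adjusted p = 9.41e-05) in male M-Z- and 0.77 (adjusted p = 0.0195) in male M-Z+ embryos.

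Gm32061, the predicted gene that spans Ndn, Magel2 and Mkrn3, was counted 12 to 60 times per embryo. Its female means were 1.17 ± 0.531 for M+Z+, 1.73 ± 0.404 for M-Z+ and 2.27 ± 0.630 CPM (SD) for M-Z-, and in males 1.12 ± 0.224, 1.28 ± 0.451 and 1.72 ± 0.646 CPM. The groups overlapped in both sexes. The log2 fold changes were 0.94 (adjusted p = 0.123, edgeR) in female M-Z-, 0.54 (0.764) in female M-Z+, 0.66 (0.333) in male M-Z- and 0.18 (0.932) in male M-Z+ embryos, so no difference was detectable at this depth. Without female M+Z+ embryo 4, which had the highest M+Z+ count, the female M-Z- difference was 1.18 with an adjusted p of 0.0405 and would be called.

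The M-Z+ calls were less firm than those in M-Z- embryos. When the M-Z- females were left out of the fit, 2 members were called in M-Z+ females in place of 4, Magel2 and Peg12, while Ndn (adjusted p = 0.125, edgeR) and Mkrn3 (0.179) were not. A replicate block also ended the Peg12 call (log2 0.74, adjusted p = 0.139, edgeR), though the labels do not say whether the replicate numbers pair the embryos. Leaving out any 1 of 13 female embryos in turn, the Magel2 and Peg12 calls in M-Z+ females held every time. The Ndn call held in 10 of 13 such fits and ended without M+Z+ embryo 5 (log2 0.49, adjusted p = 0.0610), M+Z+ embryo 6 (0.51, 0.0654) or M-Z+ embryo 1 (0.34, 0.0968, edgeR). The Mkrn3 call held in 4 of 13 and ended without M+Z+ embryo 2, 3, 5 or 6, M-Z+ embryo 1 or 2, or M-Z- embryo 1, 2 or 3, when its log2 fold change was 0.47 to 0.61 with an adjusted p of up to 0.591 (edgeR). In M-Z+ males the Ndn, Mkrn3 and Peg12 calls ended without any of the 3 M-Z+ embryos or M+Z+ embryo 1, 2 or 3, and that of Magel2 without any of them but M+Z+ embryo 3. The log2 fold changes then stayed between 0.62 and 1.02, with adjusted p-values of up to 0.233 for Ndn, 0.118 for Magel2, 0.284 for Mkrn3 and 0.228 for Peg12 (edgeR). The calls in M-Z- embryos held in every such fit, in both sexes, for all 4 coding members.

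Levels were compared between genes per length, as TPM (the count per base of exon, over the sum of such values in M). In female M+Z+ embryos the order was Ndn at 296, Peg12 at 21.8, Magel2 at 12.9, Mkrn3 at 8.42 and Gm32061 at 0.715 TPM, and no neighbours in this order overlapped. The order in male M+Z+ embryos was the same, at 284, 20.04, 13.4, 8.82 and 0.661 TPM, but the ranges of Peg12 and Magel2 overlapped. In female M-Z- embryos the TPM values were 556, 49.7, 26.7, 18.3 and 1.39 in the same order of genes. Ndn thus remained far above the other members in each genotype.

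The second question was which parental allele the reads came from. In M+Z+ embryos the 5 members were read almost wholly from the paternal allele. In M-Z- embryos the alleles were near balance, and the mean of M-Z+ embryos lay between for the coding members, though for Mkrn3 in females it was close to that of M-Z- embryos. The paternal share is the paternal percentage of a gene's allele-assigned reads in an embryo. A share was called different at an adjusted p below 0.05 (edgeR on allele counts with embryo effects) with group means at least 10 points apart. These fits and group means kept every embryo, while the exact tests below used only embryos with more than 10 such reads. All 5 members were called lower in female M-Z- embryos, against 0.289% of the 7254 autosomal genes tested, and all 5 in female M-Z+ embryos, against 0.152%. All 5 were also called lower in male M-Z- embryos, against 2.41% of 7221 genes, and in male M-Z+ embryos, against 0.194%. Of the 174 genes lower in male M-Z- embryos, 151 were on chromosome 17 and 15 on chromosome 7.

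**Figure D2:**
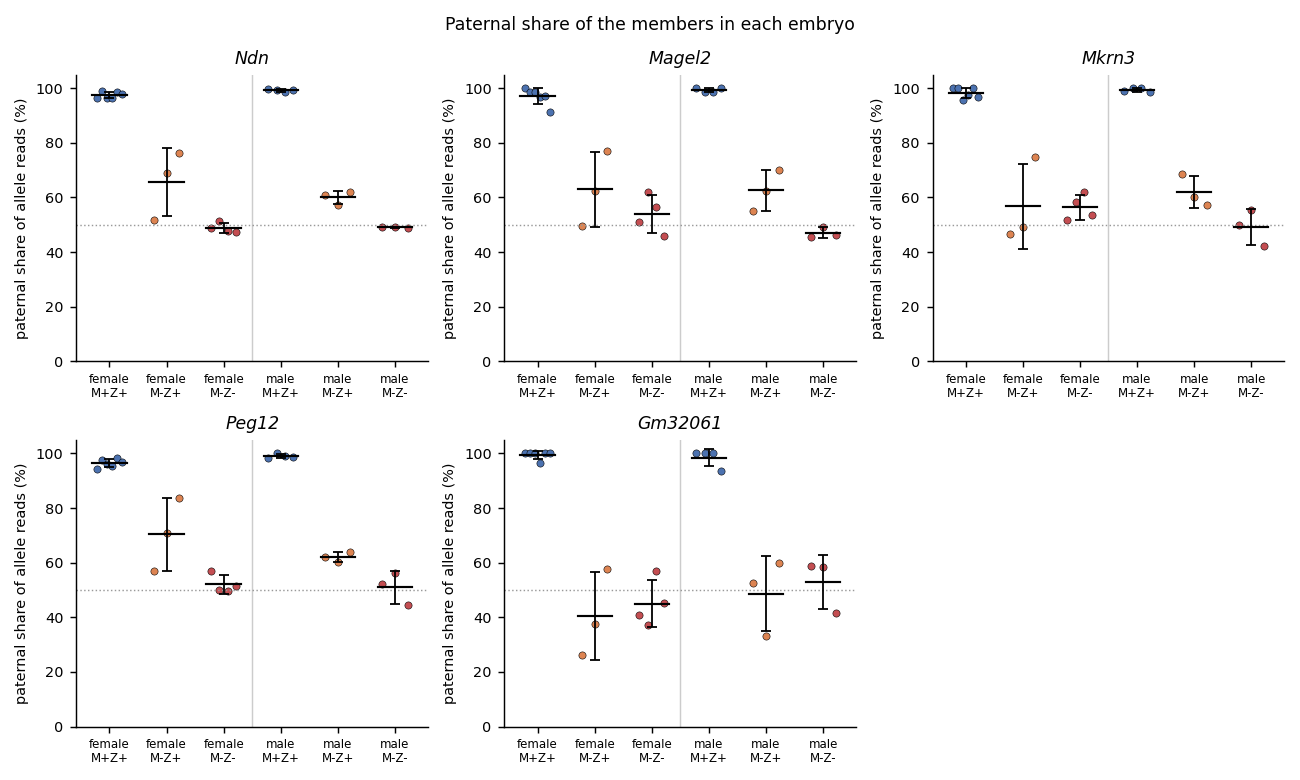
Paternal share of allele-assigned reads (%) for each member in every embryo by sex and genotype, 1 point for an embryo, with a line at the group mean, whiskers of 1 SD and a dotted line at equal alleles. M+Z+ embryos lie at 91.3% or above for every member, and the female M-Z+ embryos spread over a wide range.

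For Ndn, 695 to 1922 allele-assigned reads per embryo stood behind each share. The female M+Z+ shares ran from 96.4% through a median of 97.2% to 98.9%, the M-Z+ females were at 51.7%, 68.8% and 76.1%, and the M-Z- females at 48.9%, 51.2%, 47.8% and 47.3%. The 3 genotypes did not overlap, though M-Z+ embryo 1 was within 1 point of an M-Z- embryo. The mean share fell by 48.6 points in M-Z- (adjusted p = 3.89e-09, edgeR) and by 31.9 points in M-Z+ females (adjusted p = 8.48e-07). In males the shares were 99.6%, 99.4%, 98.5% and 99.5% in M+Z+, 60.9%, 57.1% and 61.9% in M-Z+ and 49.1%, 49.2% and 48.8% in M-Z- embryos, which spread little within each group. The male differences were -50.2 points (adjusted p = 1.16e-16, edgeR) in M-Z- and -39.3 points (adjusted p = 4.93e-15) in M-Z+ embryos.

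Magel2 was read 71 to 180 times per embryo in the allelic tables. In female M+Z+ embryos its paternal share ran from 91.3% through a median of 97.9% to 100%, where 79 of 79 reads were paternal, which allows a maternal share of up to 3.80%. The M-Z+ females were at 49.4%, 62.3% and 77.0% and the M-Z- females at 51.2%, 62.1%, 56.4% and 46.0%, so these groups overlapped each other and not M+Z+. The male shares were 100%, 98.6%, 98.6% and 100% in M+Z+, 55.2%, 62.3% and 70.2% in M-Z+ and 45.6%, 49.3% and 46.3% in M-Z- embryos, without overlap between genotypes. Magel2 differed from M+Z+ by -43.2 points in female M-Z- (adjusted p = 8.19e-06, edgeR), -34.2 points in female M-Z+ (0.000247), -52.2 points in male M-Z- (2.51e-10) and -36.7 points in male M-Z+ embryos (7.21e-08).

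Mkrn3 had 48 to 178 allele-assigned reads per embryo. The female M+Z+ shares ran from 95.8% through a median of 98.7% to 100%. Female M-Z+ embryos were at 46.6%, 49.0% and 74.7% and female M-Z- embryos at 51.7%, 58.4%, 61.9% and 53.5%, so 2 of the 3 M-Z+ embryos lay below every M-Z- embryo. In males the shares were 99.0%, 100%, 100% and 98.6% in M+Z+, 68.5%, 60.2% and 57.3% in M-Z+ and 50%, 55.2% and 42.1% in M-Z- embryos, with no overlap. The differences from M+Z+ were alike in both female groups, at -42.0 points in M-Z- (adjusted p = 5.07e-06, edgeR) and -41.5 points in M-Z+ (5.16e-05), and were -50.3 and -37.4 points in the male groups.

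Peg12 had 90 to 337 allele-assigned reads per embryo. Its female M+Z+ shares ran from 94.4% through a median of 96.5% to 98.2%, its M-Z+ shares were 56.9%, 70.7% and 83.6% and its M-Z- shares 56.8%, 49.9%, 49.8% and 51.6%. Female M-Z+ embryo 1 thus stood at the upper edge of the M-Z- embryos. In males the shares were 98.3%, 100%, 99.0% and 98.6% in M+Z+, 62.0%, 60.4% and 63.8% in M-Z+ and 52.2%, 56.1% and 44.5% in M-Z- embryos, and the groups did not overlap. The Peg12 share differed from M+Z+ by -44.4 points in female M-Z- (adjusted p = 1.64e-07, edgeR), -26.0 points in female M-Z+ (0.000151), -48.0 points in male M-Z- (1.78e-11) and -36.9 points in male M-Z+ embryos (3.48e-09), and the female M-Z+ difference was the smallest of any member against M+Z+. The share of 83.6% in female M-Z+ embryo 3 was the highest of any coding member in a mutant embryo.

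Gm32061 had 7 to 35 allele-assigned reads per embryo, so each of its shares is coarse. In female M+Z+ embryos 85 of 86 reads were paternal and in male M+Z+ embryos 52 of 53. The M-Z+ females were at 26.1%, 37.5% and 57.7% and the M-Z- females at 40.7%, 37.1%, 57.1% and 45.2%. The male M-Z+ embryos were at 52.6%, 33.3% (3 of 9 reads, kept in the fit but not in the exact test) and 60%. The male M-Z- embryos were at 58.8%, 58.3% and 41.7%. Every mutant embryo lay below every M+Z+ embryo. The call in male M-Z+ embryos (adjusted p = 0.0144, edgeR) ended without male M+Z+ embryo 1, 2 or 3 or M-Z+ embryo 2, at -42.1 to -49.3 points and adjusted p-values of up to 0.0779, and no other paternal share call of a member against M+Z+ ended when 1 embryo was left out.

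The exact two-sided permutation test over embryos gave the smallest p its design allows for each coding member against M+Z+, which says only that the groups do not overlap. Over all genes 0.676% were lower without overlap in female M-Z-, 1.21% in female M-Z+, 5.21% in male M-Z- and 3.25% in male M-Z+ embryos. These exact p-values, not adjusted, were 0.00476 in female M-Z-, 0.0119 in female M-Z+ and 0.0286 in both male comparisons. For Gm32061, after leaving out embryos with 10 reads or fewer, the exact p was 0.00794 and 0.0179 in the female and 0.0286 and 0.0667 in the male comparisons, in the same order, again the smallest possible.

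Reads of each allele were next taken on their own, as that allele's reads of a gene over all allele-assigned reads of the embryo in M, here called the paternal and the maternal output. Maternal output rose for every member tested, and paternal output was called for no member in any comparison. For Ndn in females the paternal output was 289 ± 10.1, 279 ± 38.2 and 281 ± 18.4 CPM (SD) for the genotypes in the order M+Z+, M-Z+, M-Z-, while the maternal output was 7.70 ± 3.29, 157 ± 92.9 and 295 ± 17.9 CPM. In males the paternal output of Ndn was 288 ± 25.8, 310.3 ± 17.7 and 319 ± 44.4 CPM and the maternal output 2.25 ± 1.71, 208 ± 32.9 and 331 ± 46.1 CPM. The maternal copy of Ndn was thus read in M-Z- embryos at 1.05-fold the level of the paternal copy in females and 1.04-fold in males.

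**Figure D3:**
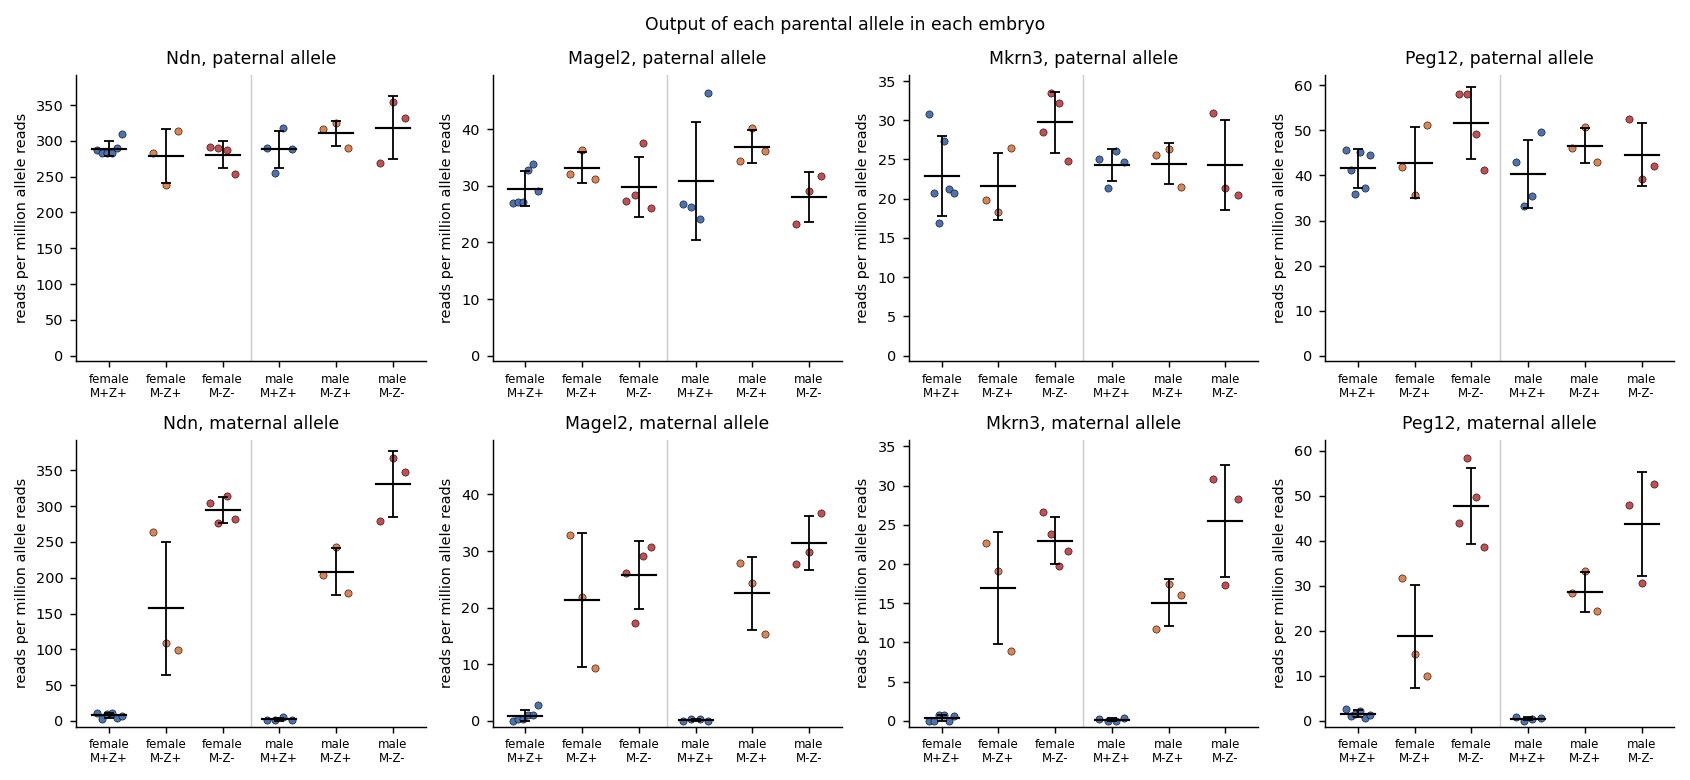
Paternal output (upper panels) and maternal output (lower panels) of the 4 coding members in every embryo, in reads per M allele-assigned reads, by sex and genotype, with a line at the group mean and whiskers of 1 SD. Paternal points of each mutant group overlap those of M+Z+ embryos, at 255 to 355 CPM for male Ndn, while maternal points lie near 0 in M+Z+ embryos only.

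Paternal output overlapped between M-Z- and M+Z+ and between M-Z+ and M+Z+ embryos for every member in both sexes. Between M-Z- and M-Z+ embryos it did not overlap for Magel2 in males, where M-Z- was lower (log2 -0.38, adjusted p = 0.635, edgeR), and 7.57% of all genes were lower there without overlap. For female M-Z- embryos the log2 fold changes were -0.10 (95% interval -0.23 to 0.03) for Ndn, -0.04 for Magel2, 0.32 (-0.02 to 0.65) for Mkrn3, 0.26 (0.01 to 0.51) for Peg12 and -0.26 for Gm32061. In male M-Z- embryos they were 0.12, -0.15, -0.04, 0.11 and -0.57 in the same order. In M-Z+ embryos they were -0.11, 0.13, -0.14, -0.01 and -0.66 in females and 0.06, 0.22, -0.05, 0.16 and -0.62 in males. With edgeR, 0 of the 5 members passed the test, and the lowest adjusted p against M+Z+ was 0.45, for Peg12 in female M-Z- embryos, which alone had an unadjusted p below 0.05 in these comparisons. Mkrn3 in female M-Z- against M-Z+ embryos (log2 0.46, adjusted p = 0.601, edgeR) had one as well. Over all genes, either direction, 0.12% and 0% were called in female M-Z- and M-Z+ and 2.64% and 0.0156% in male M-Z- and M-Z+ embryos, and 412 genes had an unadjusted p below 0.05 where 0% were called. The signs of several of these small values turn when 1 embryo is left out.

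Maternal output was called higher in M-Z- females for all 5 members, against 0.336% of 6852 genes, and in M-Z+ females for all 5, against 0.19%. In males the 4 coding members were tested and called higher in M-Z- embryos, against 2.39% of 6691 genes, and in M-Z+ embryos, against 0.194%. For Ndn the fitted fold in maternal output was 36.8 (95% interval 25.3 to 53.7) in female M-Z- and 19.7 (13.1 to 29.6) in female M-Z+ embryos, and for Peg12 it was 28.5 (18.2 to 44.5) and 11.4 (6.71 to 19.2). The female M-Z+ folds moved with single embryos. Over the embryos left out, the log2 value for Ndn ran from 3.70 to 4.56, against 4.30 in the full fit. For Peg12 it ran from 2.90 to 3.83, against 3.51. In males the Ndn fold was 145 (102 to 206) in M-Z- and 89.7 (62.6 to 128) in M-Z+ embryos, over 27 maternal reads in the 4 M+Z+ libraries. Of these reads, 14 were in M+Z+ embryo 3. With 1 embryo left out, the log2 fold change ran from 6.93 to 7.84 in male M-Z- embryos, against 7.18 in the full fit. In male M-Z+ embryos it ran from 6.24 to 7.15, against 6.49. The highest value of each lay above the printed interval. The other folds rest on 16 or fewer M+Z+ maternal reads and are not printed. In male M+Z+ embryos the 4 libraries held 2 maternal reads of Magel2 and 2 of Mkrn3, a pooled maternal share of 0.531% (95% Wilson interval 0.146 to 1.91) and 0.660% (0.181 to 2.37). In the 3 male M-Z- embryos the maternal output of Magel2 was 31.4 ± 4.76 CPM and that of Mkrn3 25.5 ± 7.16 CPM, against paternal outputs of 28.0 ± 4.39 and 24.3 ± 5.75 CPM. The libraries carried no molecular identifiers, so the Wilson intervals speak only for the counting of reads.

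**Figure D4:**
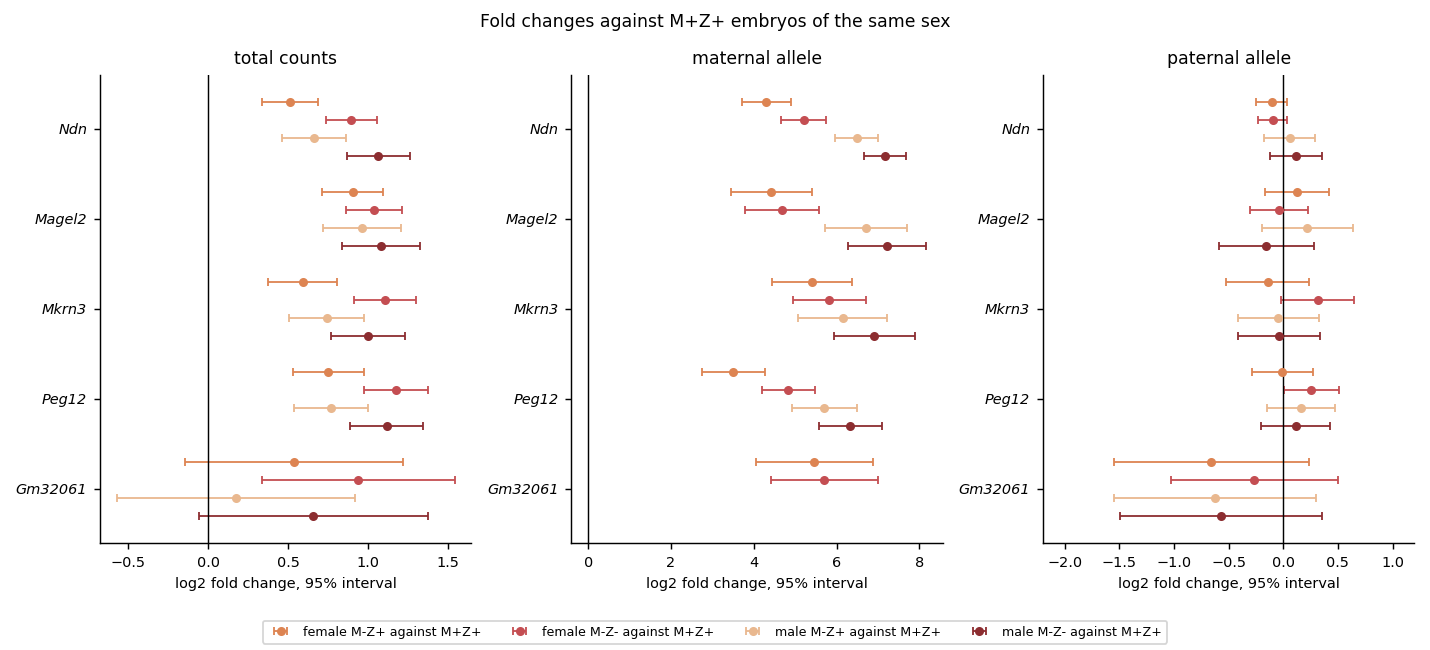
Log2 fold change of each member against M+Z+ embryos of the same sex in total counts, maternal output and paternal output, with 95% intervals from edgeR (the scales of the panels differ, and maternal output of male Gm32061 was not tested). In total counts the coding members lie between 0.90 and 1.17 in M-Z- and between 0.51 and 0.96 in M-Z+ embryos, and in paternal output all lie near 0 or have wide intervals.

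The rise of the total count can be set beside the allele reads. The mean total CPM of Ndn rose 1.87-fold in female M-Z- embryos and the sum of its 2 allele outputs 1.94-fold, with a paternal output 0.971-fold that of M+Z+. For Peg12 in the same embryos the values were 2.26-fold, 2.30-fold and 1.24-fold. Magel2 gave 2.06-fold, 1.83-fold and 1.01-fold, and Mkrn3 2.16-fold, 2.26-fold and 1.30-fold. The allele-assigned reads of Ndn were 21.2% to 23.6% of its counts in each group, those of Magel2 15.1% to 18.0%, those of Mkrn3 35.5% to 40.3% and those of Peg12 21.7% to 28.2%, so a large part of the counts carried no allele information.

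The third question was whether the paternal copy of Zfp57 in M-Z+ embryos made a difference, that is, M-Z- against M-Z+. The total counts were called for no member. In females 0 of 5 passed, against 0.124% of all genes higher in M-Z-, with log2 differences of 0.38 for Ndn (adjusted p = 0.129, edgeR), 0.13 for Magel2, 0.51 for Mkrn3 (adjusted p = 0.0645) and 0.42 for Peg12 (adjusted p = 0.191). In males 0 of 5 passed, against 0.084%, with differences of 0.40, 0.12, 0.26 and 0.35. Every one of these 8 differences was higher in M-Z-. Without female M-Z+ embryo 1 the female differences were 0.55 for Ndn (adjusted p = 0.000781, edgeR), 0.63 for Mkrn3 (0.0241) and 0.61 for Peg12 (0.00593) and all 3 would be called. The Mkrn3 difference was also called without female M+Z+ embryo 5, at 0.51 (adjusted p = 0.0384). With all embryos it was called by DESeq2 (0.517, adjusted p = 0.00352) and by edgeR with both sexes in 1 fit (0.525, adjusted p = 0.0212).

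Paternal share was called different between M-Z- and M-Z+ embryos only for Ndn in males, 1 of 5 members against 2.05% of all genes lower. The mean was 49.02% in M-Z- and 59.98% in M-Z+, a difference of -10.96 points (adjusted p = 0.0053, edgeR), and the call ended without male M-Z+ embryo 3, where the difference was -9.97 points, just under the minimum. For 3 embryos against 3 the exact permutation test cannot give a p below 0.1, and it gave 0.1 for each of the 4 coding members in males. The shares of these 4 did not overlap between the groups, as was so in this direction for 6.36% of all genes. The male difference was -15.5 points for Magel2 (adjusted p = 0.111, edgeR), -12.9 for Mkrn3 (0.426) and -11.1 for Peg12 (0.185), and Magel2 was called without male M-Z+ embryo 1, at -19.2 points (adjusted p = 0.0135). In females 0 of 5 were called, against 0.138% lower. The female difference was -16.8 points for Ndn (adjusted p = 0.232, edgeR) and -18.4 points for Peg12 (adjusted p = 0.145), each without overlap, as for 4.26% of all genes in this direction, and with an unadjusted exact p of 0.0286, the smallest possible, while it was -9.002 points for Magel2 and -0.416 for Mkrn3. Without female M-Z+ embryo 1 the Ndn difference was -23.7 points (adjusted p = 0.0346, edgeR) and the Peg12 difference -25.1 points (adjusted p = 0.0116), and both would be called. Both were also called when only these 2 genotypes were fitted (adjusted p = 0.000979 for Ndn and 0.0188 for Peg12, edgeR). That fit called 113 of all genes in either direction, in place of 16.

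The mean maternal output of M-Z+ embryos lay between the means of M+Z+ and M-Z- embryos for each coding member. The embryos of the mutant groups overlapped for Magel2 and Mkrn3 in both sexes and for Peg12 in males. They did not overlap for Ndn in both sexes and for Peg12 in females. Over all genes, maternal output was higher in M-Z- without overlap for 4.7% in females and 6.79% in males. The M-Z+ mean was 53.3% of the M-Z- mean for Ndn, 82.9% for Magel2, 73.6% for Mkrn3 and 39.5% for Peg12 in females, and 62.9%, 71.7%, 59.1% and 65.5% in males. Some of the female values moved with single embryos. Without M-Z+ embryo 1 they were 35.1% for Ndn and 26.0% for Peg12, and without M-Z+ embryo 3 the Magel2 mean was above that of M-Z- embryos, at 106%. Peg12 was called higher in M-Z- females (log2 1.33, adjusted p = 0.0141, edgeR), 1 of 5 members against 0.861% of all genes. For Ndn the M-Z- males were called higher (log2 0.69, adjusted p = 0.0387), 1 of 4 members tested against 1.27%. The Peg12 call ended without female M-Z+ embryo 2 or 3 or M-Z- embryo 2, at log2 values of 1.01 to 1.22 and adjusted p-values of up to 0.142. The Ndn call in males ended without M+Z+ embryo 2 or 4, M-Z+ embryo 1 or 3 or M-Z- embryo 2, at 0.59 to 0.69 and up to 0.311. Without female M-Z+ embryo 1 the female Ndn difference was 1.501 (adjusted p = 4.1e-05, edgeR) and would be called. It was also called with only these 2 genotypes fitted (0.91, adjusted p = 0.0338) and with no filter on low counts (0.90, adjusted p = 2.82e-06, edgeR).

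The 3 female M-Z+ embryos had the widest spread of paternal share of the 6 groups. The paternal share over the reads of all 4 coding members together was 51.8% (95% Wilson interval 49.6 to 53.9) in embryo 1, 66.7% (64.2 to 69.2) in embryo 2 and 76.9% (74.7 to 79.0) in embryo 3. These intervals cover the counting of reads only, and within embryo 2 the coding members ranged from 49.0% for Mkrn3 to 70.7% for Peg12. In the 3 male M-Z+ embryos the same share was 60.9%, 58.1% and 62.5%, in female M-Z- embryos 48.0% to 52.1% and in male M-Z- embryos 47.8% to 49.98%. Embryo 1 had the highest expression of Ndn, Magel2, Mkrn3 and Peg12 among the female M-Z+ embryos. The depth of these 3 embryos was 17.4 to 18.5 M and the median share of their autosomal genes 49.7% to 49.8%, both close to the other embryos.

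The coding members were compared within each M-Z+ embryo. Their highest and lowest share lay 5.15 to 21.7 points apart, the most in female embryo 2, from 49.0% for Mkrn3 to 70.7% for Peg12. In the 6 M-Z+ embryos of both sexes the mean shares were 62.8% for Ndn, 62.7% for Magel2, 59.4% for Mkrn3 and 66.2% for Peg12. Of 10 pairs of members compared within embryos, 1 had an exact two-sided sign-flip permutation p below 0.05. Peg12 was above Ndn in 6 of 6 embryos, by 3.46 points ± 2.44 (SD), with an exact p of 0.0312 that is the smallest 6 embryos allow and would not pass an adjustment over the 10 pairs. The share of Ndn minus that of Mkrn3 ranged from -7.61 to 19.7 points. Gm32061 was below the coding members, by 17.1 points ± 12.1 against Ndn, 16.1 ± 9.45 against Magel2, 12.4 ± 9.07 against Mkrn3 and 20.6 ± 13.2 against Peg12, in the 5 embryos with more than 10 reads. It was lower in 5 of 5 embryos for 3 of these pairs and in 4 of 5 against Mkrn3, and 5 embryos cannot give an exact p below 0.0625. In M-Z- embryos 0 of 10 pairs had an exact p below 0.05.

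The sexes were compared as well. No member was called for a difference of total counts between female and male M+Z+ embryos, where 0.0817% of 17139 genes were, or for a sex by genotype interaction of total counts, where 0% of genes were called and 1107 (M-Z-) and 625 (M-Z+) had an unadjusted p below 0.05 (edgeR). The interaction of paternal share was called for no member in M-Z- embryos, against 0.761% of 7232 genes, and for none in M-Z+ embryos, against 0%, where 384 genes had an unadjusted p below 0.05. Ndn had the lowest p of the members in both, with adjusted p-values of 0.21 and 0.546 (edgeR). It would be called in both without female M-Z+ embryo 1 (adjusted p = 0.0324 in M-Z- and 0.0283 in M-Z+), and in M-Z- embryos also without male M+Z+ embryo 3 (adjusted p = 0.0436).

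Maternal reads in M+Z+ embryos were few in both sexes. The pooled maternal share of Ndn was 2.58% (132 maternal and 4985 paternal reads, 95% Wilson interval 2.18 to 3.05) in females and 0.753% (27 and 3558 reads, 0.518 to 1.09) in males. Of the 27 male reads, 14 were in M+Z+ embryo 3, at a maternal share of 1.49%. Male M+Z+ embryos 1, 2 and 4 were at 0.434%, 0.576% and 0.501%. The mean paternal share of Ndn, female minus male, differed by -1.84 points, with overlap (exact two-sided permutation p = 0.0238), and that of Peg12 by -2.52 points, without overlap (exact p = 0.0143), as was so in this direction for 0.476% of all genes. The highest female Peg12 share was 98.25% and the lowest male one 98.27%. The exact p was 0.195 for Magel2, 0.310 for Mkrn3 and 0.722 for Gm32061. These 5 comparisons were looked at after the shares had been seen, and a Benjamini-Hochberg adjustment over the 5 leaves none below 0.05.

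The other genes of the domain came from a list of 28, of which 25 were in the tables and 24 tested. Of these, 6 rose in female M-Z- embryos (Snrpn, Snurf, Snhg14, Snord64, A230057D06Rik and A330076H08Rik), 5 in male M-Z- (the same without Snord64) and 4 in M-Z+ embryos of each sex (Snrpn, Snurf, Snhg14 and A230057D06Rik), and none fell. Over all genes 0.285% rose in female M-Z-, 0.264% in male M-Z-, 0.0593% in female M-Z+ and 0.048% in male M-Z+ embryos. Snrpn, the gene of a splicing protein whose promoter holds the control region, went from 93.6 ± 5.18 to 171 ± 6.25 CPM in females, and its paternal share from 99.2% to 63.6% in M-Z+ and 47.0% in M-Z- embryos. These levels of Snrpn share lie close to those of Ndn, at 97.4%, 65.5% and 48.8%. Snurf and Snhg14 overlap Snrpn, and reads in the overlap were counted for each, so these genes are not separate observations.

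**Figure D5:**
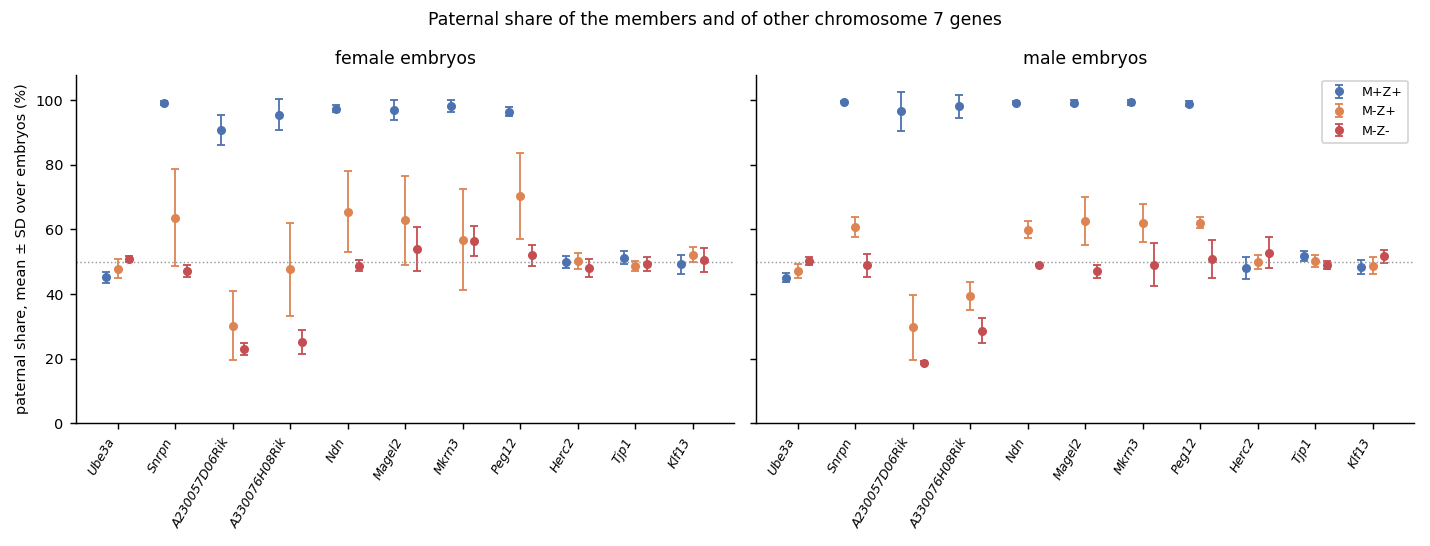
Mean paternal share (%) of the 4 coding members and of 7 other genes of chromosome 7, not all in chromosomal order, by sex and genotype, with whiskers of 1 SD over embryos and a dotted line at equal alleles. The members and Snrpn lie at 96.4% or more in M+Z+ and near balance in M-Z- embryos, A230057D06Rik and A330076H08Rik lie at 28.7% or less in M-Z- embryos, and Ube3a, Herc2, Tjp1 and Klf13 lie near balance in every group.

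A pair of transcripts between Snrpn and the members went past balance. A330076H08Rik fell from a paternal share of 95.6% in female M+Z+ to 25.2% in female M-Z- embryos (adjusted p = 5.75e-07, edgeR) and from 98.2% to 28.7% in males (adjusted p = 2.35e-09). A230057D06Rik fell from 90.9% to 23.0% in females (adjusted p = 1.82e-07, edgeR) and from 96.6% to 18.7% in males (adjusted p = 8.1e-08), and its expression rose from 1.43 to 8.56 CPM in females. In the coding members the mean share stayed between 47.1% and 56.4% in M-Z- embryos. Of 18 list genes with allele reads in all 23 embryos, 4 were called for paternal share in a comparison and 14 were not, the largest difference among these 14 being 10.5 points. Over all genes 0.165% to 2.49% were called for paternal share, in either direction, in a single comparison. Ube3a, the ubiquitin ligase gene whose paternal copy is silenced in neurons, was among the 14, at 45.2% in female M+Z+ and 50.9% in female M-Z- embryos (adjusted p = 0.0916, edgeR).

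Genes related to the members by family or by protein partnership were also read from lists. Of 17 tested MAGE family genes and partners of necdin and MAGEL2, 0 were called in any of the 6 comparisons within a sex, where 0.048% to 0.563% of all genes were called in either direction, so a count of 0 does not set the list apart. Their median log2 fold change was between -0.03 and 0.04. Of 6 tested makorin and Frat family genes and GSK3 kinases, 0 were called, with medians between -0.13 and 0.00. Their lowest adjusted p in edgeR was 0.0875 for the first list and 0.0132, with a log2 fold change under the minimum of 0.5, for the second.

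The genes whose expression over the 23 embryos was most like the mean profile of the 5 members, after subtracting the mean of each sex, were Snhg14 and A230057D06Rik (Pearson r = 0.95 for each), Snrpn and Snurf (0.94 for each) and Zdbf2 on chromosome 1 (0.90), among 15498 genes. The members' own r with that profile was 0.98 for Peg12, 0.97 for Mkrn3, 0.95 for Magel2, 0.94 for Ndn and 0.76 for Gm32061. For paternal share, among 6147 genes, the closest were A330076H08Rik, Snrpn, Snhg14 and Snurf (0.99 for each) and A230006K03Rik (0.93), against the mean of the 4 coding members. These correlations describe 23 embryos that share genotype groups and libraries, and the profile contains the differences between genotypes given above.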

How the data were processed

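The deposited values were raw counts of reads for each gene in each embryo, 1 table per sex. Per the labels and the study's methods, the authors trimmed the reads, aligned them to mm9 with STAR 2.7.8a (submitters' processing notes) and counted them with featureCounts of Subread 2.0.1, strand-specific, with a read that overlaps several genes counted for each. The deposited allelic tables held raw counts of the same kind for reads that the authors had split by parental allele at strain variants between 129 and DBA. A deposited column of exon lengths was used for TPM only. No table had been normalized by the authors. Of the 6 female M+Z+ embryos in the allelic table, 4 shared header names and are given here without a number.

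CPM, shares and outputs were computed from these counts. Tests used edgeR 4.0.16 with limma 3.58.1 in R 4.3.3 (glmQLFit and glmQLFTest, TMM scaling, filterByExpr) with the 3 genotypes of 1 sex fitted together and Benjamini-Hochberg adjustment over all genes tested. Paternal share was fitted on the 2 allele counts of each embryo with embryo effects, and only autosomal genes averaging 10 or more such reads were fitted. Sex differences required a log2 size of at least 0.3, and interactions had no minimum. Exact permutation tests were run in Python 3.11.15 with scipy 1.17.1. Where a maternal count was 0, a floor of 3 counts was used only for the upper limit of the maternal share. Shares, outputs and fits kept such counts at 0. The fits were tested on simulated counts with 1 spread set for all genes, and total counts were changed only in genes averaging above 50 counts. Of these, genes changed 2-fold were recovered at 99% to 100% and genes changed 1.5-fold at 50% to 67% over the 4 comparisons with M+Z+. There were 4 to 10 false calls in each for total counts and 7 to 15 for paternal share. The recovery rates do not cover genes with fewer counts, such as Gm32061, or genes of wider spread. No libraries of a group agreed within sampling noise (chi-square per gene of at least 2.27). Alternatives were DESeq2 1.42.0, other filters and thresholds, both sexes or only 2 genotypes in 1 fit, a replicate block, an exact Kruskal-Wallis test and leaving out each embryo. The genes named were the 5 members, called genes of the Prader-Willi list and of the family and partner lists, Zfp57, and the 5 genes most like the members by Pearson r of log2 CPM (prior count of 1, mean of at least 1 CPM) and of paternal share. Apob and Ube3a were named after their values were seen. The members and lists were chosen with earlier results of these data known.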

Additional observations from a re-analysis of the deposited data

Results flagged for a closer look

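In groups of 4 to 10 embryos, an embryo was picked out when its gap to the nearest other embryo, over the range of its group, passed Dixon's 95% critical value. Over the 30 tests on CPM and paternal share of the members, 4 embryos were picked out. Chance gives about 1 in 20, a rate that does not hold for shares that lie at their upper bound of 100%. All 4 were the lowest paternal share of an M+Z+ group. For Ndn, male M+Z+ embryo 3 was at 98.5% where the others were at 99.4% to 99.6%. For Magel2, 1 unnumbered female M+Z+ embryo was at 91.3% where the others were at 96.8% to 100%. For Gm32061, another unnumbered female M+Z+ embryo was at 96.6% and male M+Z+ embryo 4 at 93.8% where all others were at 100%, a single maternal read in each, and any maternal read would be picked out in such a group.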

How the results depend on the processing

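Paired numbers: samples of 1 sex share replicate numbers. The correlation of their deviations was above 0.1 in 2 of 10 female and 2 of 9 male pairs, with a highest value of 0.28 and 0.48. The labels do not say whether the numbers pair the embryos, and these correlations cannot settle it. With a replicate block, 1 member, Magel2, was called in total counts in female M-Z+ embryos in place of 4 (adjusted p = 0.264 for Ndn and Mkrn3 and 0.139 for Peg12, edgeR), and the counts of members called in the other total count comparisons were the same.

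In female M-Z+ against M+Z+ embryos a fit of only the 2 genotypes called 2 members in total counts, and leaving out an embryo gave 2 to 4 (0 to 4 in males). In female M-Z- against M-Z+ embryos DESeq2 called 1 member in total counts, as did both sexes in 1 fit, and leaving out an embryo gave 0 to 3. There, paternal share was called for 2 members and maternal output for 2 with only the 2 genotypes, maternal output also for 2 with no filter on low counts, and leaving out an embryo gave 0 to 2 for each. In male M-Z- against M-Z+ embryos it gave 0 to 2 for share and 0 to 1 for maternal output, and for the share interactions 0 to 1. The exact Kruskal-Wallis test, 1 test over the 3 genotypes of a sex, called 0 members for paternal share and 0 of all 6457 female and 6379 male genes. The exact p was 0.0001 for female Ndn and Peg12 (adjusted p = 0.108) and 0.00143 for the coding members in males (0.314), the smallest these designs allow, so in males the count of 0 says nothing about the stability of the calls.

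None of the values that changed sign had been called. Over the embryos left out, the share difference of M-Z- against M-Z+ ran from -5.51 to 8.56 points for female Mkrn3, -2.55 to 13.3 for female Gm32061 and -3.37 to 9.96 for male Gm32061, and the maternal output of female Magel2 from -0.11 to 0.70 (log2). Paternal output against M+Z+ ran from -0.15 to 0.00300 for Magel2 and -0.40 to 0.0511 for Gm32061 in female M-Z-, -0.13 to 0.0885 for Peg12 in female M-Z+ (0.0150 and 0.00829 without unnumbered M+Z+ embryos b and d), -0.26 to 0.0755 for Magel2 and -0.23 to 0.0660 for Mkrn3 in male M-Z- and -0.11 to 0.0359 for Mkrn3 in male M-Z+ embryos. The total count of Gm32061 in male M-Z+ embryos ran from -0.11 to 0.39. Of 502 recomputed counts of members called, 464 stayed within 1.5 times the reported one. Counts over all genes moved more. For total counts the 95 genes called in female M-Z- against M+Z+ embryos became 143 with DESeq2, 212 with no minimum fold and 52 with the replicate block, and the 65 of males became 182 with DESeq2, 99 with no filter, 275 with both sexes in 1 fit, 128 with the replicate block and 40 with only the 2 genotypes. In M-Z+ embryos the 10 female genes became 4 with the block and 3 with only the 2 genotypes, and the 8 male genes 13 with DESeq2 and 41 with the block. The 25 genes of male M-Z- against M-Z+ became 57 with DESeq2, 48 with both sexes in 1 fit and 16 with only the 2 genotypes. With only the 2 genotypes, the 16 share calls of female M-Z- against M-Z+ became 113, and of paternal output the 8 calls in female M-Z- became 16 and the 1 in male M-Z+ became 3. The paternal output calls of M-Z- against M-Z+ went from 6 to 85 in females and from 152 to 90 in males. They were 89 and 259 with no filter. With no filter, the calls against M+Z+ went from 8, 0, 169 and 1 to 88, 5, 315 and 32 for paternal output and from 32, 21, 189 and 13 to 88, 96, 330 and 64 for maternal output (in females M-Z- then M-Z+, then the same in males), and for maternal output of M-Z- against M-Z+ from 64 to 101 in females and 95 to 216 in males. The cause of these changes was not tested. Gm32061 is limited by its depth of at most 35 allele reads per embryo.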
